A study of Mus musculus with 42 samples.

Results

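The cytochrome P450 (Cyp) genes were examined across liver, quadriceps muscle and visceral fat of Akt1+/- and wild-type mice. The members were all genes on the array whose name is Cyp followed by a digit, which gave 72 genes, measured by 106 probes, of 27658 genes and 41174 probes that are not controls. The brightest probe, by its mean over all 42 arrays, stood for each of the 30 genes that had more than 1. All mice were C57BL/6 females. The Akt1+/- mice were heterozygous for a germline deletion of Akt1, the gene of a kinase in insulin signaling, so that 1 allele was absent from every cell type, and the wild-type (Wt) mice carried both alleles. RNA was taken from 8-week-old mice (3 arrays per genotype in each tissue) and from mice labelled 35 weeks (4 per genotype), which gave 14 arrays per tissue. Each tissue was measured in bulk, so fewer cells of a type and less RNA per cell cannot be told apart. The labels do not say whether the arrays of a group came from separate mice, and the p-values measure only the spread between these samples.

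Cytochrome P450 enzymes are haem proteins of the endoplasmic reticulum or the mitochondrion that use molecular oxygen and electrons from a partner reductase to hydroxylate lipophilic compounds. The families numbered from the bottom of the series handle mainly drugs, pollutants and fatty acids, and are abundant in hepatocytes, while the others carry single steps of bile acid, steroid hormone, vitamin D and retinoic acid metabolism. In rodent liver many of them are controlled by nuclear receptors and by the sex-dependent pattern of growth hormone secretion.

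A level here is the log2 of the processed intensity of a spot relative to the 75th percentile of its array, so that a level of 0 equals that percentile. The levels of different genes come from different probes and were not compared. The 75th percentile was at an intensity of 282 to 840 over the arrays, 57.2 to 69.2% of spots were well above background, and 0 were saturated. Akt1, the deleted gene, was lower on every Akt1+/- array than on every Wt array of the same age in all 3 tissues. Its mean level in liver was 3.29 ± 0.08 (SD, n = 3) in Wt and 2.66 ± 0.17 in Akt1+/- mice at 8 weeks, and 3.54 ± 0.06 (n = 4) and 2.82 ± 0.14 at 35 weeks. The log2 difference averaged over both ages was -0.67 in liver (limma adjusted p = 0.00225), -0.58 in muscle (0.0761, not past the threshold) and -0.56 in fat (0.00474).

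More P450 genes were detected in liver than in fat or muscle. A gene entered the test of a tissue when 3 or more arrays of 1 of its groups showed the probe well above background. Of the 72 genes, liver passed 68, fat 47 and muscle 40, with 39 tested in every tissue and 21 in liver alone. Of all 27658 genes, 17551 passed in liver, 18389 in fat and 17166 in muscle. On all 14 arrays of a tissue, 59 genes were well above background in liver, 33 in muscle and 37 in fat. Family 2, with 35 genes the largest, had 30 of them above background on all liver arrays, 16 on all muscle arrays and 19 on all fat arrays. The 11 genes of family 4, which hydroxylate fatty acids, had 10, 7 and 7. All 6 genes of family 3, the drug-metabolising Cyp3a enzymes, were above background on every liver array, 0 on every muscle array and 1 on every fat array. Cyp11b2, Cyp19a1 (aromatase) and Cyp24a1, which inactivates vitamin D, were tested in no tissue. Cyp11b2 and Cyp19a1 were above background on 0 arrays and Cyp24a1 on 1 liver and 1 muscle array.

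The first comparison asked where each P450 was expressed. Between liver and muscle, 58 of 69 Cyp genes were higher in liver and 2 lower (limma adjusted p below 0.05 and a log2 difference of at least 1), which is 87.0% called against 48.8% of all 19947 genes tested (23.8% higher and 25% lower in liver). Between liver and fat, 53 were higher and 4 lower in liver, where 44.4% of all genes were called (21.4% higher and 23% lower). The median log2 difference over the Cyp genes was 6.85 against muscle and 5.06 against fat, and over all genes -0.06 and 0.08. In total 52 Cyp genes were higher in liver than in both other tissues, and for 49 of them no liver array overlapped any muscle or fat array. The exceptions were Cyp21a1, Cyp2c55 and Cyp2c65. Little overlap follows in part from picking genes by their difference, and neither count was made over all genes. Lower in liver were Cyp11a1 and Cyp1b1 against muscle (-1.13 and -3.09) and Cyp11a1, Cyp1b1, Cyp2s1 and Cyp4b1 against fat (-1.57, -5.34, -5.22 and -1.29). Cyp11a1 was above background on 0 liver, 0 muscle and 8 fat arrays. Its difference between liver and muscle is therefore between undetected signals, and that against fat rests on dim spots.

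Cyp2a5, a coumarin hydroxylase, had a liver level of 6.28 at the lowest, 7.35 at the median and 8.17 at the highest of 14 arrays. Its levels ran from -7.95 to -1.13 in muscle, where 5 arrays were above background, and from -8.44 to -3.41 in fat, where 3 were. The log2 difference was 13.20 against muscle and 14.17 against fat. The other genes with the widest gaps to the nearer tissue were Cyp3a25 (13.06 against muscle and 13.27 against fat), Cyp2c40 (13.01 and 14.29), Cyp4a12 (12.87 and 13.51), Cyp3a44 (12.84 and 13.95), Cyp3a16 (12.63 and 13.33), Cyp2c29 (12.71 and 12.47) and Cyp2j5 (12.45 and 13.41), all as log2 differences. Each was above background on 14 liver arrays and on 1 to 7 arrays of muscle and of fat, so that the size of these gaps rests on dim spots. Where a P450 was not well above background on any of the 14 arrays of muscle or of fat, only a lower bound could be given against that tissue. Cyp1a2, which oxidises caffeine and aromatic amines, was at least 482-fold higher in liver than in muscle and at least 711-fold higher than in fat. Cyp8b1, required for cholic acid synthesis, was at least 306-fold higher in liver than in muscle.

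**Figure D1:**
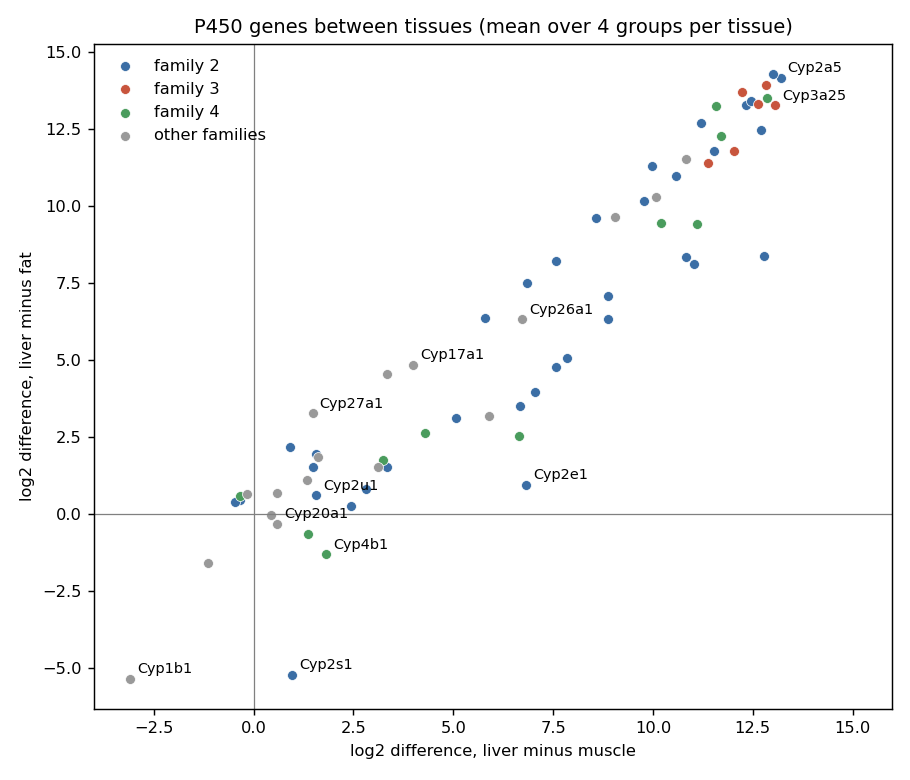
Log2 difference of each of the 69 Cyp genes tested between liver and muscle (x axis) and between liver and fat (y axis), averaged over genotype and age, with points coloured by Cyp family. Most genes lie in the upper right, higher in liver than in both tissues, with Cyp2a5 at 13.20 and 14.17, while Cyp1b1 lies at -3.09 and -5.34 and Cyp2s1 at 0.96 and -5.22.

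The P450s of metabolic pathways were described by role. All 7 bile acid and sterol P450s were higher in liver than in either tissue: Cyp7a1, which catalyses the rate-limiting step of bile acid synthesis, Cyp8b1, Cyp7b1 and Cyp39a1, which hydroxylate oxysterols, Cyp27a1 of the alternative bile acid pathway, Cyp46a1, the cholesterol hydroxylase known from brain, and Cyp51, the lanosterol demethylase of cholesterol synthesis. Their median log2 difference was 3.33 against muscle and 3.28 against fat. All 6 female-predominant liver P450s (Cyp2a4, Cyp2b9, Cyp2b13, Cyp3a16, Cyp3a41 and Cyp3a44) and all 3 male-predominant ones (Cyp2d9, Cyp4a12 and Cyp7b1) were higher in liver than in either tissue. Of the vitamin and retinoid P450s, Cyp2r1, a vitamin D hydroxylase, and Cyp26a1, which breaks down retinoic acid, were higher in liver than in both, whereas Cyp26b1, a second retinoic acid hydroxylase, and Cyp27b1, which makes the active form of vitamin D, were not called between liver and muscle or fat. Of the 3 steroid hormone P450s tested, Cyp17a1 and Cyp21a1 were higher in liver than in both tissues. Cyp11a1 was called lower in liver than in both, but it was above background on 0 liver and 0 muscle arrays. Of all genes, 23.8% were called higher in liver than in muscle and 21.4% higher than in fat.

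3 Cyp genes were highest in fat and 0 were highest in muscle, counts that were not made over all genes. Cyp2s1 had levels of 2.03, 2.58 and 3.21 (lowest, median and highest of 14 arrays) in fat, -3.83, -2.47 and -1.27 in liver and -4.20, -3.61 and -3.17 in muscle. Cyp1b1, which oxidises estrogens and polycyclic hydrocarbons, had median levels of 1.32 in fat, -0.92 in muscle and -4.06 in liver, with ranges that did not overlap. For Cyp4b1 the medians were 4.06 in fat, 2.81 in liver and 0.85 in muscle, again without overlap. Cyp2e1, the ethanol- and acetone-oxidising P450, was within the threshold of 1 between liver and fat (0.96) but 5.85 log2 units higher in fat than in muscle. Between muscle and fat, 34 of 69 Cyp genes were called, 10 higher and 24 lower in muscle (48.3% of all genes, 22.3% higher and 26% lower). The widest gaps in favour of fat were Cyp2s1 (muscle minus fat, -6.17), Cyp2e1 (-5.85), Cyp2b9 (-4.38) and Cyp4v3 (-4.10), and in favour of muscle Cyp27a1 (1.80), Cyp4a14 (1.66) and Cyp2d26 (1.49).

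A few arrays of muscle and fat carried liver-typical signal. In muscle, Akt1+/- replicate 3 at 8 weeks had a summed linear level of 7 hepatocyte markers, albumin among them, of 57.6, where the other muscle arrays lay between 0.424 and 6.07 and liver between 2633 and 3650. On this array 41 of the 52 liver-enriched Cyp genes were well above background (23 to 34 on the other muscle arrays), and it was the highest of the 14 muscle arrays for 33 of them. Cyp3a41 stood at 1.21 on it and between -5.64 and -2.13 on the others. Without this array, 30 Cyp genes were called between muscle and fat, 6 higher and 24 lower in muscle, and Cyp2c40 (0.77) and Cyp3a44 (0.64) no longer passed. In fat, Wt replicate 1 at 8 weeks had a marker sum of 13.0 (at most 6.23 on the others) and was the highest array for 18 of the 52 genes. The part of this signal in the muscle and fat levels of other P450s was not tested. Of the markers of each tissue, all 10 of muscle and all 8 of adipocytes were above background on every array of their own tissue. The adipocyte sum was 151 to 337 in muscle against 1537 to 2251 in fat, so that muscle levels of P450s that are higher in fat, such as Cyp2e1 and Cyp4b1, were measured beside some adipocyte signal.

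The next comparison asked which P450s differed with Akt1 dose in liver. 2 of 68 Cyp genes differed between genotypes averaged over both ages, 1 higher and 1 lower, which is 2.94% against 5.85% of all 17551 genes tested (3.47% higher and 2.38% lower). Cyp27b1, best known in the kidney, where it activates vitamin D, was higher in Akt1+/- liver. Its levels were -4.46, -4.72 and -4.41 in Wt and -3.74, -3.74 and -3.69 in Akt1+/- mice at 8 weeks, and -3.59, -3.73, -3.99 and -3.63 in Wt and -2.77, -2.83, -2.95 and -2.72 in Akt1+/- mice at 35 weeks. Every Akt1+/- array lay above every Wt array of its age. The log2 difference was 0.86 with a standard error of 0.08, or 1.82-fold (limma adjusted p = 0.00101), and it was called under all 22 alternatives. The probe, at chr10:126455278-126455337 on mm8, was well above background on 13 of 14 liver arrays, and a second Cyp27b1 probe, above background on 0 of them, differed by 0.49.

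Cyp2f2, which oxidises naphthalene, was lower in Akt1+/- liver. Its levels were 7.27, 7.64 and 7.92 in Wt and 6.72, 6.97 and 6.23 in Akt1+/- mice at 8 weeks, and 6.56, 6.43, 6.49 and 6.45 in Wt and 6.17, 6.53, 6.22 and 6.64 in Akt1+/- mice at 35 weeks. The genotypes were separate at 8 weeks and overlapped at 35 weeks. The log2 difference was -0.53 with a standard error of 0.13 (limma adjusted p = 0.0391), and it was not called under 13 of 22 alternatives, with an adjusted p of up to 0.0884 (0.0808 in the blocked fit, which takes the replicate number as a block). Cyp2f2 is known from periportal hepatocytes. Of 7 periportal markers tested, 3 were also lower in Akt1+/- liver (Sds -0.69, Ass1 -0.48 and Gls2 -0.31), and of 8 pericentral markers limma called 0 (1 at an unadjusted p below 0.05). The summed linear level of the 7 periportal markers, all above background on every liver array, was 635 to 842 on the Akt1+/- arrays of both ages and 854 to 953 on the Wt arrays, without overlap. The part of these markers in the Cyp2f2 difference was not tested. In liver no slide held both genotypes, so slide and genotype cannot be told apart there, although both were scanned on the same day at 35 weeks.

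Most other liver P450s had small negative genotype differences that did not pass the test. The median over the 68 genes was -0.21, with 50 below 0, against 0.01 over all 17551 genes, with 8340 below 0. An unadjusted p below 0.05 in limma was reached by 26 of the 68, and by 4590 of all 17551 genes. Scaling to the array median moved the median of all genes by -0.11, and 20 Cyp genes were then called, 1 higher and 19 lower. The number of lower P450s therefore depended on the scaling, as did the split of all calls (59.3% higher, and 16.2% with the median). The summed linear level of 7 hepatocyte markers, all of them above background, was 2633 to 2932 in Akt1+/- and 3198 to 3650 in Wt livers at 8 weeks, and 2714 to 2991 and 2734 to 3643 at 35 weeks, and its part in these differences was not tested. Single markers from the lists of other cell types were called higher in Akt1+/- liver, Lipe and Cidec of 3 adipocyte, Cd3e of 7 lymphoid and Cd163 of 6 macrophage markers tested. The adipocyte markers Adipoq, Plin, Lep, Cfd and Retn were above background on too few liver arrays to be tested. Among the bile acid and sterol P450s limma called 0 of 7 (3 at an unadjusted p below 0.05, median -0.29), and so did the methods' 2-way test. Cyp7a1 had the largest difference, -2.52 (adjusted p = 0.0908 with limma), and the largest spread within groups of the 68 genes, with a mean SD of 1.43 where the median gene had 0.32. Its levels were 3.48, 2.86 and 2.24 in Wt and 1.20, -0.77 and -0.02 in Akt1+/- mice at 8 weeks, and 4.51, 4.32, 1.60 and 3.99 in Wt and 1.34, 4.28, 1.90 and -2.37 in Akt1+/- mice at 35 weeks. The genotypes did not overlap at 8 weeks and overlapped at 35 weeks. The differences of Cyp27a1 (-0.40), Cyp39a1 (-0.45), Cyp7b1 (-0.29), Cyp8b1 (-0.23), Cyp51 (-0.10) and Cyp46a1 (0.14) did not pass.

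**Figure D2:**
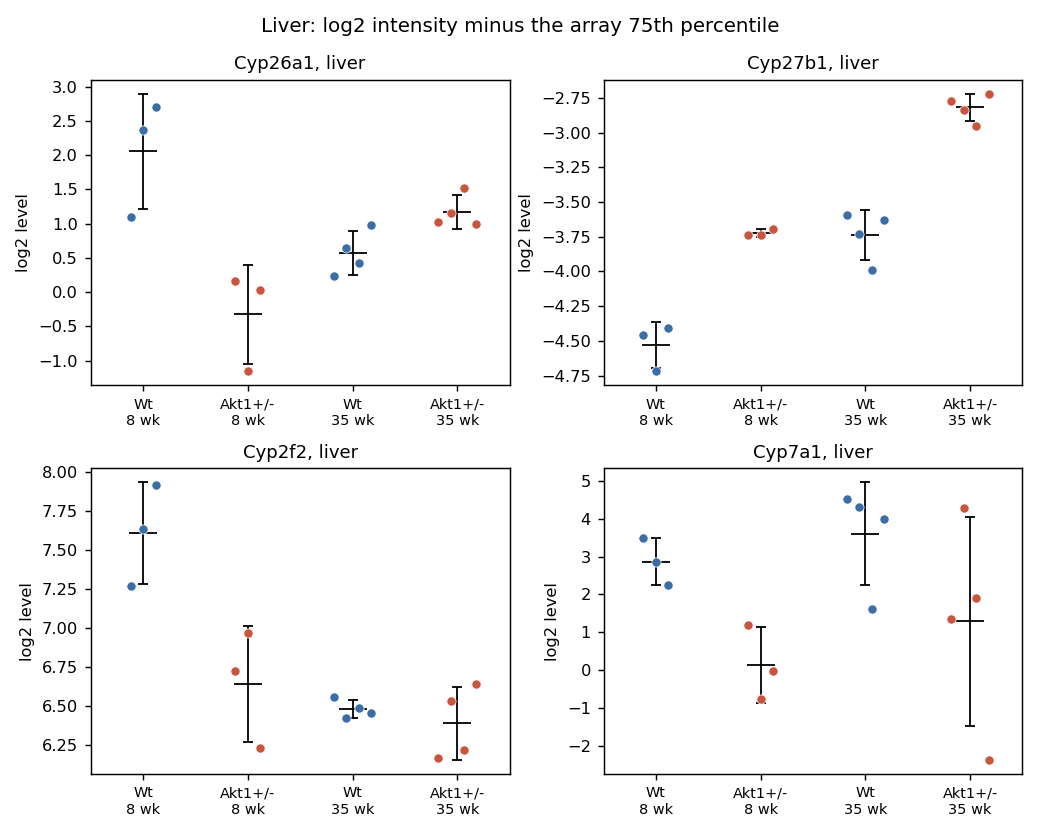
Levels of Cyp26a1, Cyp27b1, Cyp2f2 and Cyp7a1 in liver (y axis, log2 intensity relative to the 75th percentile of the array) on each array of the 4 groups, with bars for the mean ± SD (n = 3 at 8 weeks and 4 at 35 weeks). Cyp27b1 was higher on every Akt1+/- array at both ages, Cyp26a1 was lower at 8 weeks and higher at 35 weeks, and Cyp7a1 ranged from -2.37 to 4.51.

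Cyp26a1 was the only Cyp gene in liver whose genotype difference itself differed between the ages (1 of 68, against 0.496% of all genes, 0.359% with a positive and 0.137% with a negative interaction). Its levels were 1.10, 2.37 and 2.70 in Wt and 0.16, -1.15 and 0.03 in Akt1+/- mice at 8 weeks, and 0.24, 0.64, 0.43 and 0.98 in Wt and 1.02, 1.16, 1.53 and 0.99 in Akt1+/- mice at 35 weeks. Every Akt1+/- array was below every Wt array at 8 weeks and above every one at 35 weeks. The interaction was 2.98 on the log2 scale with a standard error of 0.53 (limma adjusted p = 0.0346). It was not called under 13 of 22 alternatives. Its size stayed between 2.49 and 3.46 over the alternatives, and the adjusted p was highest, 0.102, with the replicate number as a block, where 9 genes of all were called for the interaction in place of 87. The genotype difference averaged over both ages was -0.89 (limma adjusted p = 0.0654). Cyp26a1 lies on chromosome 19 (probe at chr19:37766220-37766279 on mm8) and is known to be induced by its own substrate through retinoic acid receptors, which bind direct repeats. The promoter is shown for that reason, from RefSeq on GRCm38.p6, from 250 bases before to 50 bases after the start of the gene, with capitals marking the match to a direct repeat of 2 copies of AGTTCA with 5 bases between them, found on the opposite strand and ending 16 bases before the start.
Cyp26a1, chr19:37697558-37697857, + strand: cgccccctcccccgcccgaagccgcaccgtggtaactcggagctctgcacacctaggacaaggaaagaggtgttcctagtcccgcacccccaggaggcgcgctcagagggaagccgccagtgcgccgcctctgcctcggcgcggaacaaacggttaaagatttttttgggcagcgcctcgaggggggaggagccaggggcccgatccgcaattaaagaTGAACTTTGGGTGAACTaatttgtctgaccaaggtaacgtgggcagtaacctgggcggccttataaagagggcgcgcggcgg
Both strands were searched in 61 windows of 52 Cyp genes for these exact letters alone. This was the only Cyp window that held them, and 8 of 32851 windows of all genes (0.0244%) did. The spelling searched was the one that the Cyp26a1 window holds, so its match and the rarity of matches are not a test. Other forms of the repeat were not searched. The counts therefore do not show whether other P450s lack such an element.

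The Cyp3a genes were described together because 5 of the 6 lie close together on chromosome 5, with their probes between 145689932 and 146281892 on mm8. Cyp3a11, Cyp3a25 and Cyp3a13 were chosen after their values were seen. Cyp3a41, Cyp3a16 and Cyp3a44 are female-predominant, and Cyp3a11 is the main target of the pregnane X receptor among them. In Cyp3a41 the levels were 8.63, 8.64 and 8.90 in Wt and 9.01, 8.77 and 8.68 in Akt1+/- mice at 8 weeks, and 8.56, 8.64, 8.54 and 8.76 in Wt and 7.70, 8.70, 7.71 and 7.70 in Akt1+/- mice at 35 weeks. 3 of the 4 older Akt1+/- arrays were below all other liver arrays, and replicate 2 lay among the Wt. Cyp3a16 had the same order, with 4.94, 6.34, 5.14 and 5.38 in Akt1+/- mice at 35 weeks against 6.22, 6.54, 5.88 and 6.35 in Wt. Cyp3a44 stood at 5.68, 7.13, 5.70 and 5.95 against 6.62, 7.30, 6.51 and 6.96, and Cyp3a11 at 5.92, 7.39, 5.79 and 6.49 against 7.46, 7.87, 6.60 and 7.12. Cyp3a25 stood at 5.75, 6.64, 5.58 and 5.72 against 6.04, 6.52, 5.73 and 6.25, closer to the Wt, and its interaction was 0.14 where those of Cyp3a41, Cyp3a16, Cyp3a44 and Cyp3a11 were below 0. Cyp3a13, whose probe lies apart from the others, was at 5.13, 5.43, 5.77 and 5.06 against 5.08, 5.11, 5.09 and 5.12.

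Over all arrays limma called 0 of the 6 Cyp3a genes for genotype, and 0 had an unadjusted p below 0.05. The log2 difference of Cyp3a41 was -0.29 (limma adjusted p = 0.248) and its interaction -0.77 (0.281). Replicate 2 of the older Akt1+/- livers was the highest of its 4 arrays for 5 of the 6 Cyp3a genes and for 31 of the 68 Cyp genes (45.6%, against 23.4% of all genes), while its Akt1 level, 2.85, was like that of the others. The summed level of 8 adipocyte markers was 21.3 on it and 51.5 to 75.4 on the other 3, with 3 to 4 of the 8 above background per array. Adipoq, 1 of these markers, went the other way. It was at -4.10 and above background on replicate 2, and at -7.81 to -6.00 and not above background on the others. The part of these markers in the Cyp3a levels was not tested. Without replicate 2, 5 Cyp genes were called for genotype in liver, 1 higher and 4 lower. Those lower included Cyp7a1 (-3.02, limma adjusted p = 0.0342), Cyp3a41 (-0.41, 0.0204) and Cyp3a44 (-0.55, 0.0482), beside Cyp2f2. Cyp3a16 stood at -0.45 (limma adjusted p = 0.0519). A second, dimmer Cyp3a44 probe, above background on all 14 liver arrays, had a genotype difference of 1.09 over all arrays, opposite to the -0.38 of the brighter probe, so the direction for Cyp3a44 depended on the probe. The interaction of Cyp3a41 then passed (-1.02, limma adjusted p = 0.0353) and that of Cyp26a1 did not (2.98, 0.0667). No label sets this array apart, so the values over all arrays stand as the result. Of the other female-predominant P450s, the genotype differences of Cyp2a4 (-0.29), Cyp2b9 (-0.30) and Cyp2b13 (-0.48) did not pass, nor did those of the male-predominant Cyp2d9 (-0.25) and Cyp4a12 (0.08).

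**Figure D3:**
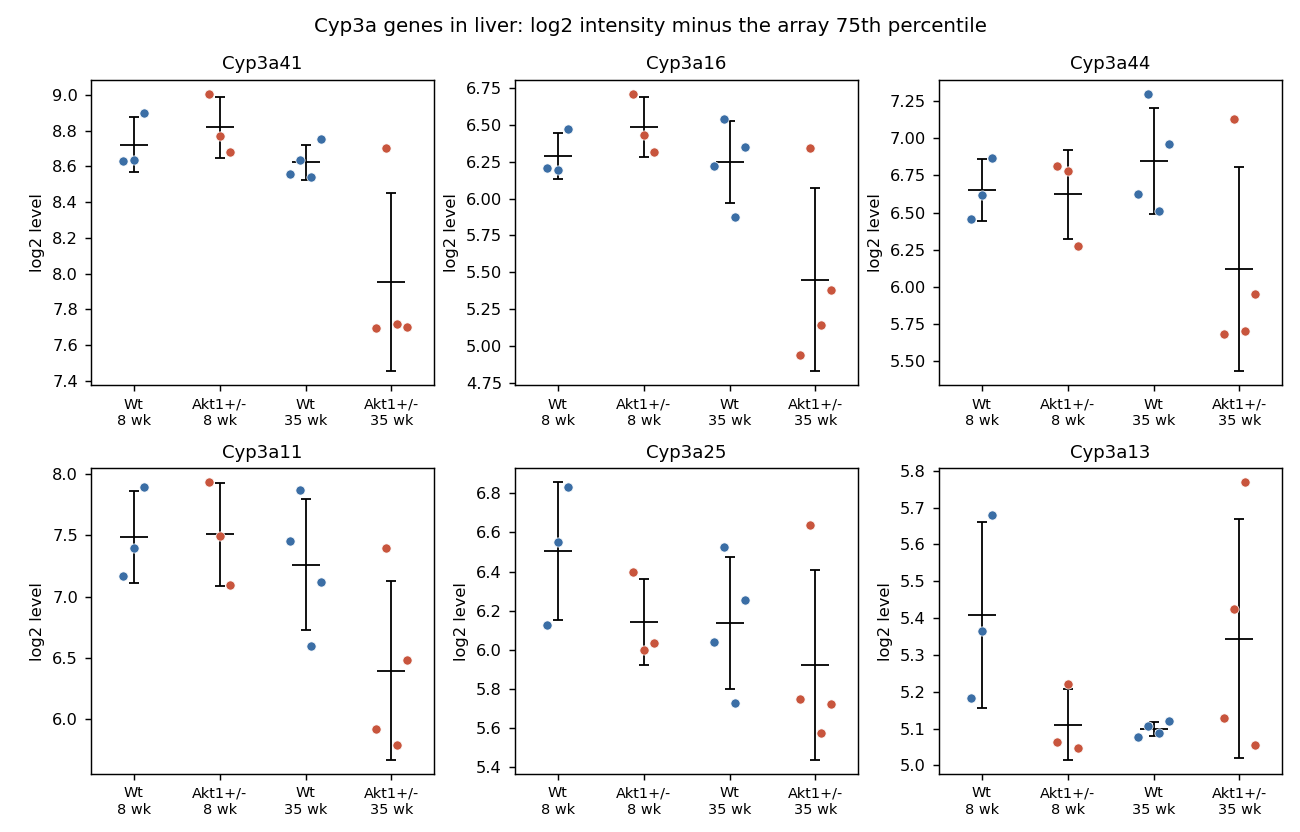
Levels of the 6 Cyp3a genes in liver (y axis, log2 intensity relative to the 75th percentile of the array) on each array of the 4 groups, with bars for the mean ± SD (n = 3 at 8 weeks and 4 at 35 weeks). In Cyp3a41, 3 of the 4 older Akt1+/- arrays lie between 7.70 and 7.71 and the fourth at 8.70, within the range of the Wt.

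The promoters of 4 Cyp3a genes are shown because these genes are close in sequence. A probe of one may take signal from a neighbour, but the windows lie mostly before the start of the gene and probes measure transcripts. The identity of the windows therefore does not show whether probes share signal. The sequences are from RefSeq on GRCm38.p6, with capitals marking CAAAGTCCA, a form of the element bound by the hepatocyte factor HNF4.
Cyp3a41a, chr5:145720087-145720386, - strand: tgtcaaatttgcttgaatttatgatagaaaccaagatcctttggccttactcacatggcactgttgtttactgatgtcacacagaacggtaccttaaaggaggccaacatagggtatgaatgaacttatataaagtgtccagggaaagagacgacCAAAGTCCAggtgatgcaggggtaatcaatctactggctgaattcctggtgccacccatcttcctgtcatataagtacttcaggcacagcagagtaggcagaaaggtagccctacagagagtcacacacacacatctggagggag
Cyp3a16, chr5:145469674-145469973, - strand: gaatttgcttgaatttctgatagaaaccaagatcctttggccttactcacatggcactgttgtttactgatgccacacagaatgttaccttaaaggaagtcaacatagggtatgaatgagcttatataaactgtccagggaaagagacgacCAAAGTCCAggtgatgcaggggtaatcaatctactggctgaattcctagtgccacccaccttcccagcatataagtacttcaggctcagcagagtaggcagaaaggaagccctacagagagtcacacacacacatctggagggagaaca
Cyp3a44, chr5:145805825-145806124, - strand: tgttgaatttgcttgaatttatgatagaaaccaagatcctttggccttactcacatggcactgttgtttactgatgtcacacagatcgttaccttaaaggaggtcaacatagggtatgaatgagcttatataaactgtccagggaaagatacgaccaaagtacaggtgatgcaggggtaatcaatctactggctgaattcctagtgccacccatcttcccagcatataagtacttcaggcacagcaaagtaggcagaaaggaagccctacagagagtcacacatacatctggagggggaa
Cyp3a11, chr5:145879805-145880104, - strand: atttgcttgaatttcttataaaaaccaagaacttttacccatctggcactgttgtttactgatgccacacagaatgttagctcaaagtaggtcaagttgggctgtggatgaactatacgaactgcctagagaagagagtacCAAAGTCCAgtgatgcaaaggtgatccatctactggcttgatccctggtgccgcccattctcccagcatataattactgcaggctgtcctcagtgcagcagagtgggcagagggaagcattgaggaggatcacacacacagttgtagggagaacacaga
The windows of the 3 female-predominant genes were 94.3 to 95.9% identical to each other and 79.9 to 82.9% identical to that of Cyp3a11. The element stood 87 bases before the start in Cyp3a41a, 91 in Cyp3a16 and 101 in Cyp3a11, and its exact letters were not in the window of Cyp3a44. With both strands searched, it was in 6 of 61 Cyp windows (Cyp2c40, Cyp2c70, Cyp3a11, Cyp3a16, Cyp3a41a and Cyp8b1), all of them among the 43 windows of genes higher in liver than in both other tissues (14%), and in 0 of the 18 others. Of all windows 0.475% held it. The letters TATAAA were in 46.5% of the windows of liver-enriched Cyp genes, 33.3% of the other Cyp windows and 13.6% of all windows. Probe sequences were not used here, so shared signal between these genes was not checked.

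The age comparison asked which P450s differed between 8 and 35 weeks, averaged over genotypes. In each tissue the 2 ages were on different slides and scanned on different days, so age and scan cannot be told apart. In liver 20 of 68 Cyp genes were called, 7 higher and 13 lower at 35 weeks, which is 29.4% against 34.6% of all genes (19.9% higher and 14.7% lower). Of the 13 that fell, 12 were above background on all 14 arrays, and of the 7 that rose, 2 were. With each array scaled to its median, all genes shifted by -0.18 and 37 Cyp genes were called, 5 higher and 32 lower. Over all genes the share of higher calls then went from 57.5 to 24.5%. Markers of other cells were also higher in liver at 35 weeks, among them the lymphoid markers Cd79b (0.63), Ms4a1 (0.75), Cd3e (0.43) and Cd2 (0.56) and the macrophage markers Cd68 (0.39) and Itgam (1.64), while Clec4f was lower. Their part in the P450 differences was not tested.

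The largest fall in liver was that of Cyp2j11, of the arachidonic acid epoxygenase subfamily. Its levels were -3.68, -3.36 and -3.07 in Wt and -3.11, -3.05 and -3.62 in Akt1+/- mice at 8 weeks, and -6.10, -6.05, -4.97 and -4.28 in Wt and -5.81, -4.82, -5.31 and -4.11 in Akt1+/- mice at 35 weeks. No older array reached any younger one, and only 3 of the 8 older arrays were well above background. The log2 difference was -1.87 (limma adjusted p = 0.000925). Cyp1a2 fell by 0.77 (0.00452 with limma), from 3.46, 4.09 and 4.51 (lowest, median and highest of 6 arrays) to 2.79, 3.29 and 3.66 (of 8), with some overlap. Cyp2c54 (-0.72), Cyp2f2 (-0.69), Cyp2j6 (-0.61), Cyp2u1 (-0.59), Cyp39a1 (-0.55), Cyp3a16 (-0.54), Cyp4v3 (-0.52), Cyp3a41 (-0.48), Cyp4f16 (-0.46), Cyp4a12 (-0.31) and Cyp2j5 (-0.29) also fell. The sex-dependent genes among them were Cyp3a16 and Cyp3a41 of 6 female-predominant and Cyp4a12 of 3 male-predominant P450s.

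Among the P450s that rose in liver, Cyp46a1 went from -2.56, -2.36 and -2.15 to -1.92, -1.77 and -1.58 without overlap, by 0.60 on the log2 scale (limma adjusted p = 0.000275). Cyp27b1 rose by 0.85 (2.35e-05 with limma), about as much as it differed between genotypes. Cyp2w1 passed the test with a log2 difference of 1.73 (limma adjusted p = 0.000127), but it was above background on 0 of 6 arrays at 8 weeks and 5 of 8 at 35 weeks. In Akt1+/- liver it was at least 1.39-fold higher at 35 weeks. The remaining rises were Cyp2c66 (0.99) and Cyp2c65 (0.82), each above background on 1 of 6 younger and 6 of 8 older arrays, Cyp2b19 (0.84) and Cyp2c38 (0.62).

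In muscle 11 of 40 Cyp genes were called for age, 7 higher and 4 lower, which is 27.5% against 30.9% of all genes (16.4% higher and 14.4% lower). Cyp17a1, the steroid hydroxylase and lyase on the way to androgens, rose the most. Its levels were -0.85, -1.07 and -1.01 in Wt and -1.04, -1.16 and -1.17 in Akt1+/- mice at 8 weeks, and 0.83, 0.19, -0.34 and -0.39 in Wt and 1.16, 0.58, 0.27 and -0.03 in Akt1+/- mice at 35 weeks. Every older array was above every younger one, and the log2 difference was 1.33 with a standard error of 0.21, or 2.52-fold (limma adjusted p = 0.000674). Cyp4x1 (0.67), Cyp2u1 (0.60), Cyp27b1 (0.57), Cyp39a1 (0.55) and Cyp2b19 (0.35) also rose, and Cyp2c44 (-0.65), Cyp2c55 (-0.57), Cyp2j6 (-0.49) and Cyp4b1 (-0.32) fell. Cyp4b1 had levels of 0.74, 1.20 and 1.48 at 8 weeks and 0.66, 0.79 and 1.19 at 35 weeks, which overlapped. Cyp2w1 also passed (0.94), above background on 1 of 6 arrays at 8 weeks and 6 of 8 at 35 weeks, and was at least 1.34-fold higher at 35 weeks in Wt muscle. Adipocyte markers were also higher in muscle at 35 weeks, 3 of 8 called (Plin 1.19, Lep 1.71 and Cidec 1.17, median of the list 0.80 against 0.00 over all genes), with a summed level of 151 to 311 at 8 weeks and 193 to 337 at 35 weeks, and their part in the P450 differences was not tested. Without the 8-week Akt1+/- array that carried liver-typical signal, 9 were called, 7 higher and 2 lower.

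In fat 9 of 47 Cyp genes were called for age, 5 higher and 4 lower, which is 19.1% against 19.1% of all genes (10% higher and 9.1% lower). Cyp2c55 rose by 0.82, from -5.60, -5.30 and -4.70 to -4.90, -4.43 and -3.93 (limma adjusted p = 0.00532). Cyp2u1, a fatty acid hydroxylase, rose by 0.80 and Cyp2r1 by 0.47. Cyp2c65 (1.14) and Cyp11a1 (0.96), the cholesterol side-chain cleavage enzyme, passed the test at levels close to background, with 1 and 1 of 6 arrays above it at 8 weeks and 3 and 7 of 8 at 35 weeks. In Akt1+/- fat Cyp11a1 was at least 1.64-fold and Cyp2c65 at least 1.07-fold higher at 35 weeks. The summed linear level of 16 ovary markers in fat was 0.813 to 1.12 at 8 weeks and 0.920 to 1.39 at 35 weeks, and that of 4 adrenal markers 1.01 to 2.24 and 0.766 to 1.49. Of 5 ovary markers tested, Star (0.78) and Oosp1 were called higher at 35 weeks. Of the same list, Lhcgr, Zp1 and Zp2 were above background on 0 fat arrays, and Hsd3b1 was above it on some arrays of both ages. Oosp1, an oocyte gene, was above background on 0 of 6 younger and 6 of 8 older fat arrays. Inha and Inhba, of the same list, were above background on every fat array, and Fshr and Dppa3 on some arrays of both ages. Foxl2 was above background on older fat arrays only, and Amh on a younger one only. Oosp1 rose at least 1.38-fold in Wt and 1.46-fold in Akt1+/- fat. Also higher were 3 of 10 skeletal muscle markers (Myh4, Tnni2 and Pvalb) and 2 of 7 lymphoid markers (Cd79b and Cd3d). The part of these markers in the Cyp11a1 difference and the other age differences in fat was not tested. The falls were Cyp2j11 (-0.64), Cyp4a10 (-0.50), Cyp2j6 (-0.36) and Cyp2j13 (-0.23).

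Across the tissues 29 Cyp genes were called for age at least once, and 1 of them, Cyp2j6, moved in the same direction in all 3. In liver Cyp2j6 stood at 1.66, 2.05 and 2.49 at 8 weeks and 1.25, 1.43 and 1.88 at 35 weeks. In muscle its levels were -1.48, -1.29 and -1.11 and then -1.97, -1.83 and -1.57, without overlap, and in fat 0.12, 0.46 and 0.66 and then -0.03, 0.06 and 0.31. The log2 differences were -0.61, -0.49 and -0.36 (limma adjusted p = 0.00133, 0.000491 and 0.0051). A further 6 genes moved the same way in 2 tissues (Cyp27b1, Cyp2b19, Cyp2c65, Cyp2u1 and Cyp2w1 higher, Cyp2j11 lower). For 3 genes the called directions were opposite between tissues. Cyp2u1 was lower in liver and higher in muscle and fat, Cyp39a1 lower in liver and higher in muscle, and Cyp2c55 lower in muscle and higher in fat. The differences between tissues in these age effects were not tested. These counts across tissues were not made over all genes, of which 34.6% were called for age in liver, 30.9% in muscle and 19.1% in fat. Whether the P450s share directions more or less often than other genes is therefore not known.

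**Figure D4:**
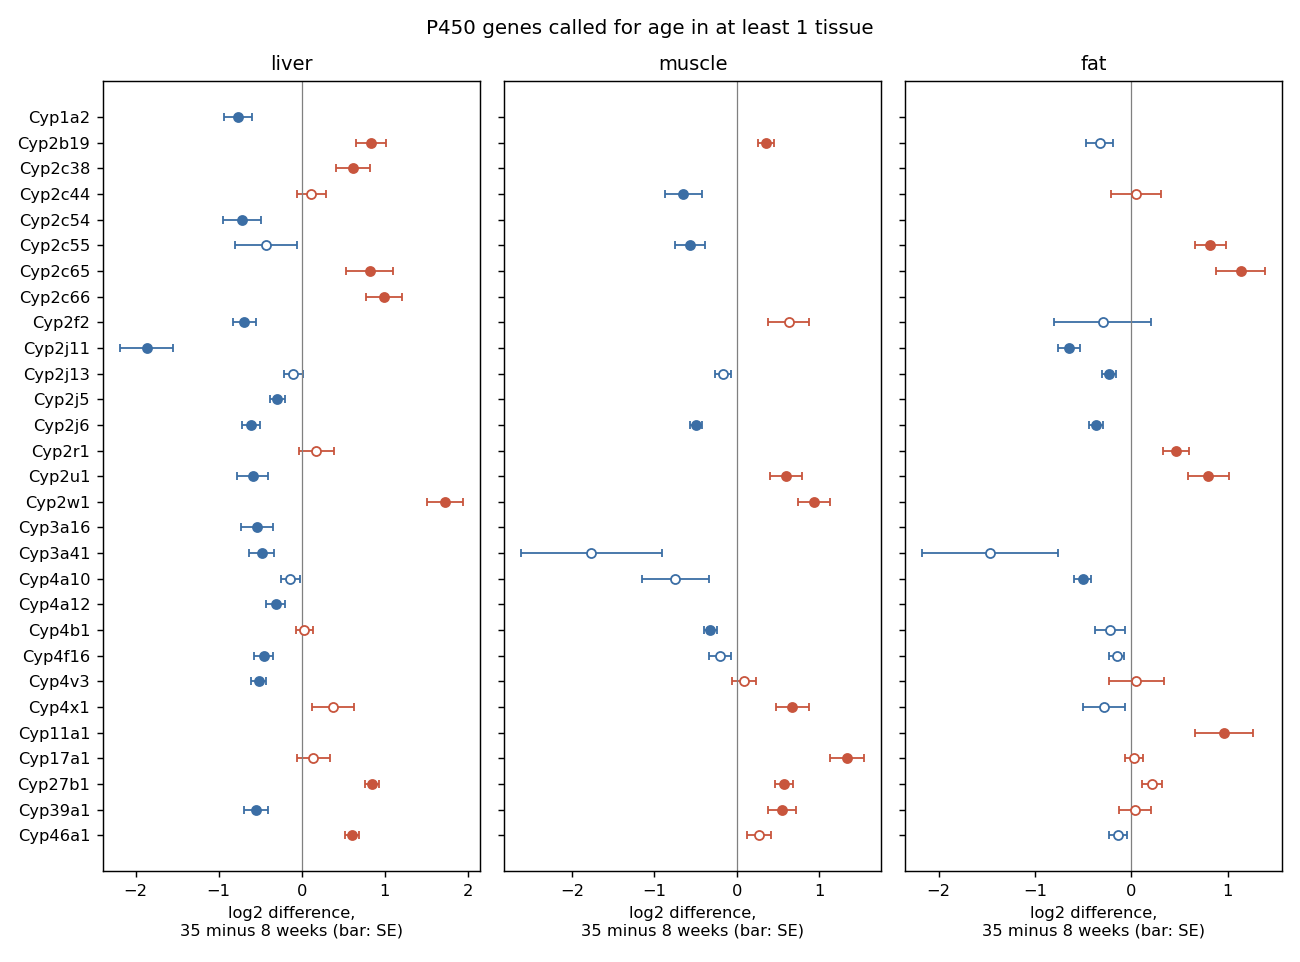
Log2 difference between 35 and 8 weeks, averaged over genotypes, with its standard error (x axis), of the 29 Cyp genes called for age in at least 1 of liver, muscle and fat. Filled points were called (red higher, blue lower at 35 weeks), open points were tested and not called, and a missing point was not tested. Cyp2j6 is lower in all 3 tissues, at -0.61, -0.49 and -0.36.

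In fat 2 of 47 Cyp genes differed between genotypes, 1 higher and 1 lower, which is 4.26% against 0.778% of all 18389 genes (0.212% higher and 0.566% lower). Cyp2u1 was higher in Akt1+/- fat. Its levels were -3.92, -3.17 and -2.90 in Wt and -2.40, -1.56 and -1.13 in Akt1+/- mice at 8 weeks, and -1.99, -1.99, -1.89 and -2.18 in Wt and -1.58, -1.85, -1.05 and -1.18 in Akt1+/- mice at 35 weeks. The genotypes did not overlap at either age, and the log2 difference was 1.12 with a standard error of 0.21, or 2.17-fold (limma adjusted p = 0.0392). Cyp2e1 was lower in Akt1+/- fat, with levels of 6.59, 6.74 and 6.43 in Wt and 6.26, 6.30 and 6.29 in Akt1+/- mice at 8 weeks, and 6.64, 6.71, 6.92 and 6.87 in Wt and 6.36, 6.46, 6.38 and 6.20 in Akt1+/- mice at 35 weeks. Again the genotypes did not overlap at either age, and the log2 difference was -0.37 with a standard error of 0.07 (limma adjusted p = 0.0434). Both calls were close to the threshold, and under 22 alternatives Cyp2u1 was not called in 13 and Cyp2e1 in 16. At the methods' own threshold, an unadjusted p below 0.01, their 2-way test passed 7 Cyp genes in fat (14.9% against 6.65% of all genes). With the replicate number as a block 0 were called, as was the case without Wt replicate 2 at 8 weeks or Wt replicate 1 at 35 weeks, while 5 were called without Wt replicate 3 at 8 weeks. 1 slide of 8-week fat held both genotypes, and on it Wt replicate 3 was below the 3 Akt1+/- arrays for Cyp2u1 and above them for Cyp2e1. At 35 weeks the genotypes were on different slides and scan days and cannot be told apart from them. The summed level of 8 adipocyte markers, all above background on every fat array, was 1744 to 1902 in Akt1+/- and 1659 to 2148 in Wt fat at 8 weeks, and 1537 to 1845 and 1993 to 2251 at 35 weeks, and its part in the Cyp2u1 and Cyp2e1 differences was not tested.

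The Cyp2b genes, targets of the constitutive androstane receptor in liver, varied widely between fat arrays, and were chosen after their values were seen. Cyp2b9 ranged from -3.65 to 0.55, Cyp2b13 from -5.14 to -0.43 and Cyp2b10 from -6.37 to -1.53. The same 3 arrays (Akt1+/- replicate 1 and Wt replicate 3 at 35 weeks and Akt1+/- replicate 3 at 8 weeks) were among the highest for all 3 genes, and they belong to 3 groups. Limma called 0 of the 3 for genotype and 0 for age in fat, and 0 had an unadjusted p below 0.05. Their probes may share signal, since the sequences of the Cyp2b genes are close.

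**Figure D5:**
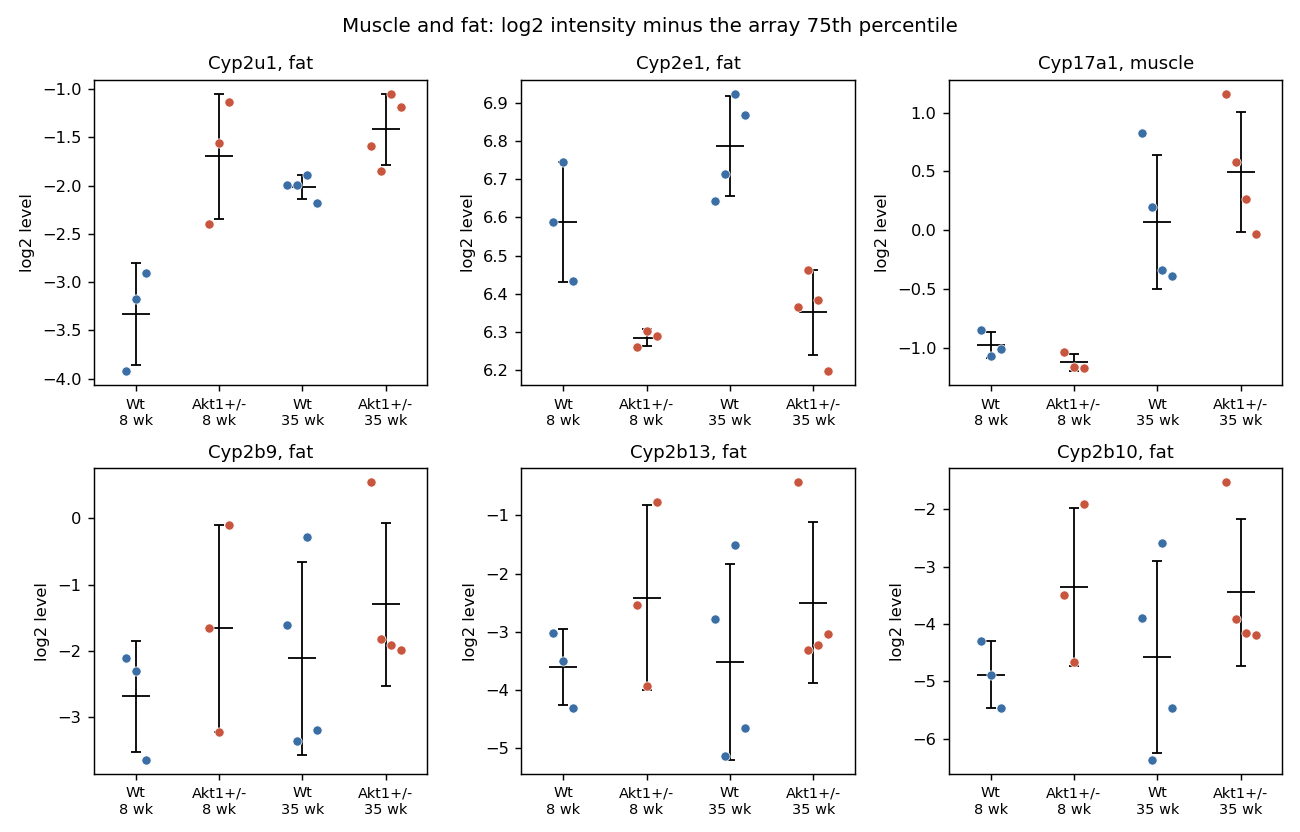
Levels of Cyp2u1, Cyp2e1, Cyp2b9, Cyp2b13 and Cyp2b10 in fat and of Cyp17a1 in muscle (y axis, log2 intensity relative to the 75th percentile of the array) on each array of the 4 groups, with bars for the mean ± SD (n = 3 at 8 weeks and 4 at 35 weeks). Cyp2u1 is higher and Cyp2e1 lower on every Akt1+/- array of each age, Cyp17a1 is higher at 35 weeks, and Cyp2b9 spreads from -3.65 to 0.55.

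In muscle 0 of 40 Cyp genes were called for genotype by limma, and 0 of 17166 genes in all. At an unadjusted p below 0.05 there were 5 of 40, against 3153 of all 17166 genes. They were Cyp4b1 (0.33), Cyp4f13 (0.16), Cyp27b1 (0.27), Cyp2c44 (0.55) and Cyp4v3 (0.34), all with higher means in Akt1+/- mice. The methods' 2-way test called 0 after adjustment and 1 at its own threshold, an unadjusted p below 0.01 (2.5% against 5.45% of all genes). For the interaction, limma called 0 Cyp genes in muscle, with 2 at an unadjusted p below 0.05 (1490 of all 17166 genes). In fat it called 0 of 47, with 15 at that level (3742 of all 18389 genes). There 1.47% of all genes were called (0.598% positive and 0.876% negative). The interaction of Cyp2c65 in fat, which was above background on 4 of 14 arrays and on 0 of the 3 Akt1+/- arrays at 8 weeks, did not pass (limma adjusted p = 0.0555).

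The partners and regulators of the P450s were counted from lists of 17 and 22 genes. Of 16 redox partners and haem synthesis genes tested in liver, 1 differed between genotypes, Cyb5r3, which reduces cytochrome b5 (-0.45, limma adjusted p = 0.0318). Of all genes 5.85% did. With age, the haem synthesis enzymes Cpox (-0.47) and Fech (-0.64) were lower in liver. Fech, ferrochelatase, was also lower at 35 weeks in muscle (-0.21) and fat (-0.53), and so in all 3 tissues. Of 22 regulators tested in liver, the xenobiotic receptors Nr1i2 (-0.43) and Nr1i3 (-0.53) and the growth hormone effectors Stat5a (-0.45) and Stat5b (-0.31) were lower and Arnt (0.37) was higher at 35 weeks. In muscle Nr1i3 (0.54), Hnf4a (0.45), Cutl2 (0.88) and Hlf (0.70) were higher and Arnt (-0.35) lower, and in fat Cutl2 was higher, by at least 1.45-fold in Wt and at least 2.11-fold in Akt1+/- mice, with no 8-week array above background. Nr1i3 also had a genotype difference that differed between ages in fat (-2.14, limma adjusted p = 0.00255), as did 1.47% of all genes.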

How the data were processed

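RNA of liver, quadriceps muscle and visceral fat was measured on 42 one-colour Agilent arrays, 14 per tissue. The authors scanned the arrays with Agilent Feature Extraction 9.1, and the deposited scanner output holds, per the file headers, the background-subtracted processed intensity of each spot, together with the unprocessed mean and background intensities. The authors also deposited a log2 table normalised in GeneSpring GX. Each column correlated at 1 with the log2 processed intensities of its array, and their medians ran from -3.69 to -3.27 with the 75th percentile near 0, so it is scaled to that percentile and not centred by gene. All columns were matched to a sample, with 0 left over. Of 43379 spots that are not controls, 182 probes were removed for an outlier flag. Groups are those of the sample labels, which give the older age as 35 weeks where the methods of the study give a later one.

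The main values were log2(processed intensity) minus the 75th percentile of the array. Genes were tested with limma 3.58.1 in R 4.3.3, in 1 fit per tissue with 1 mean per group (genotype averaged over ages, age averaged over genotypes, and their interaction) and 1 fit over 42 arrays and 12 groups for the tissues. Calls had a Benjamini-Hochberg adjusted p below 0.05 over all genes tested and, between tissues, a log2 difference of at least 1. A gene was tested where its probe was well above background on 3 arrays of a group. For a group below background on every array, an at-least fold sets the brighter group's mean against the higher, per array, of the lowest signal among probes well above background and the dim probe's own. The number of arrays limits the precision. Named genes were the called Cyp genes (in liver for age, the 12 with the largest change, with the others listed), the 8 widest differences per tissue, and the detected members of the role lists. Of the 72 gene names, 66 matched a RefSeq accession of GRCm38.p6, and 3 have a newer symbol (Cyp2c44 is Cyp2c23, Cyp3a41 is Cyp3a41a and Cyp4a12 is Cyp4a12a). The members and gene lists were chosen with earlier results of these data known. The alternatives were normexp with an offset of 50 and quantile normalization, median scaling, the authors' log2 values, no filter, the mean of all probes, a block for the replicate number, a random block for the slide, the methods' 2-way test, and each array left out in turn. The fits were tested on simulated data. 1 marker gene is not reported here. Tables, sequences and plots were made with Python 3.11.15, pandas 2.3.3, numpy 2.4.6, Biopython 1.88 and matplotlib 3.10.9.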

Additional observations from a re-analysis of the deposited data

Results flagged for a closer look

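Of 82 groups of 4 arrays examined for a single array far from the other 3, 4 held one, where chance gives about 1 in 20. Cyp3a41 in liver was at 8.704 on Akt1+/- replicate 2 at 35 weeks and between 7.697 and 7.715 on the others of its group. Cyp46a1 in liver was at -1.691 on Wt replicate 1 at 35 weeks, with the others between -1.921 and -1.89. Cyp2c65 in fat stood at -5.883 on Wt replicate 4 at 35 weeks, against -6.767 to -6.646, close to background. Akt1 in fat was at 3.2 on Akt1+/- replicate 1 at 35 weeks, against 3.028 to 3.046, and still below every Wt array. The genotype difference of Cyp26a1 in liver differed between the ages by 2.979 on the log2 scale, as an interaction term in limma (adjusted p = 0.0346), lower on all 3 Akt1+/- arrays at 8 weeks and higher on all 4 at 35 weeks.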

How the results depend on the processing

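Counts of called Cyp genes rested on few genes near the threshold. Among the genes followed singly, no called difference changed sign under the alternatives run. The other called genes, among them Cyp2u1, Cyp4f16, Cyp4v3 and Cyp2j5 for age in liver, were not checked for this. For genotype in liver (2 called) the count was 20 with median scaling and 4 with normexp and quantile normalization. It was 1 without a filter, with the replicate block, with a random block for the slide or by the methods' 2-way test after Benjamini-Hochberg adjustment. It ranged from 1 to 5 with single arrays left out, 5 without Akt1+/- replicate 2 at 35 weeks. For age in liver (20) it was 37 with median scaling and 13 with the slide as a block, and 13 to 21 with single arrays left out, 13 without Akt1+/- replicate 1 at 8 weeks. The interaction in liver (1) was 0 without a filter, with the replicate block, with the slide as a block and by the methods' test, and 0 to 1 with arrays left out. For age in muscle (11) normexp gave 7. For genotype in fat (2) normexp, median scaling and the methods' test (adjusted) gave 1, and the unfiltered fit and the replicate block gave 0, with 0 to 5 over left-out arrays. The interaction in fat (0) was 1 with the replicate block or the slide, and 0 to 5 with arrays left out, 5 without Wt replicate 3 at 8 weeks. At the methods' own threshold, an unadjusted p below 0.01, their test passed 3 genes for genotype in liver (4.41% against 10.8% of all genes) and 7 in fat (14.9% against 6.65%). For age it passed 13 in liver (19.1% against 28.6%), 8 in fat (17% against 19.1%) and 6 in muscle (15% against 26.4%). For the interaction it passed 3 in liver (4.41% against 4.6%) and 4 in fat (8.51% against 7.99%). For age in fat (9) leaving out arrays gave 6 to 10, 6 without Wt replicate 1 or Akt1+/- replicate 2 at 8 weeks. Muscle against fat (34) gave 18 with normexp. The age contrast could not be fitted with the replicate block, since replicates are numbered within an age. Same-numbered arrays of the genotypes had correlated deviations at 35 weeks (0.107 to 0.523) but not at 8 weeks (-0.198 to 0.0716), and at 35 weeks the number is also the position on the slide. The numbers were therefore not taken as pairs over both ages, and the block ended the calls of Cyp2f2 and Cyp26a1 in liver and of Cyp2u1 and Cyp2e1 in fat. The block also ended the Akt1 call in fat (limma adjusted p = 0.0698). Over single genes and alternatives, 5254 values kept their direction and side of the threshold, 255 lost the call and 47 gained one. The cause of these changes was not tested. Genes near background, such as Cyp2w1, Cyp2c65 and Cyp11a1, were limited by their signal over background.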
